A study of Mus musculus with 12 samples.

Results

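The genes described here are 10 markers of Kupffer cells, the resident macrophages of the liver, and of macrophages in general: Marco, Clec4f, Cd5l, Timd4, Vsig4, Cd68, Mrc1, Csf1r, C1qa and Cd163. They were found by gene name on the array, where they have 13 of 55681 probes, and they are 10 of the 34741 genes named there. All 10 were among the 21183 genes tested, those with a probe that Feature Extraction called well above background on 2 or more of the 12 arrays. 9 of the 10 were well above background on all 12 arrays, and Cd163 was so on 3.

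Kupffer cells line the liver sinusoids, where they take up bacteria, dying cells and worn-out red cells from the blood. They are maintained by signalling through the receptor encoded by Csf1r, and they carry scavenger and complement receptors that other liver cells largely lack. When resident cells are lost, circulating monocytes enter the liver and take on the same marker genes over time, some, such as Timd4, later than others.

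Liver RNA of male wild-type ICR mice, bought at 5 weeks of age and adapted for 1 week, was measured on 1-colour Agilent arrays, with 1 array for each of 6 treatments at day 7 and at day 2. The treatments were G0s2 siRNA and control siRNA (1.6 nmol intravenously in a lipid carrier), ATRA+DEN, DEN (diethylnitrosamine, a liver carcinogen, 80 mg/L in drinking water, about 400 µg per day), ATRA (all-trans retinoic acid, 30 mg/L in drinking water, about 150 µg per day) and vehicle (water). G0s2 encodes an inhibitor of the lipase ATGL, and small interfering RNA (siRNA) lowers the transcript it targets. According to the protocol siRNA was injected 1 day ahead of DEN, but the labels for these groups give the siRNA alone, and whether the animals then received DEN is not stated.

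No group has a replicate, and it is not stated if the RNA was pooled over animals, so every p-value below measures the spread between pairs of arrays. For 3 day-7 arrays the treatment characteristic differs from the title and source name: the array titled DEN reads ATRA, that titled ATRA+DEN reads DEN, and that titled ATRA reads ATRA+DEN. Titles were used. At day 7 Cdkn1a, a p53 target, had levels of 6.62 and 6.83 in the arrays titled ATRA+DEN and DEN, against 2.84 and 1.96 in those titled ATRA and vehicle. Cyp26a1, which retinoic acid induces, had 4.34 and 7.10 in those titled ATRA+DEN and ATRA, against 1.35 and 2.38 in those titled DEN and vehicle, so for both genes the high arrays were the ones whose titles name the agent. Between 41.0% and 50.7% of probes on an array were well above background. There were 4 slides. At day 2 the siRNA pair had a slide to itself (slide 2) and the 4 remaining groups shared slide 1. At day 7 DEN and vehicle shared slide 3, and the siRNA pair shared slide 4 with ATRA+DEN and ATRA. G0s2 was lower with G0s2 siRNA than with control siRNA by -1.19 at day 7 and -1.85 at day 2 on the log2 scale, and Cdkn1a was higher with DEN in all 4 pairs, by 1.26 to 4.87. Hepatocyte genes were well above background on all arrays for 10 of the 10 measured.

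A level is the log2 of the processed spot intensity minus the array's 75th percentile over probes, so 0 is that percentile, and a difference of 1 is 2-fold. Levels of different genes come from different probes and were not compared. The probes used have listed positions in build mm9, among them chr6:83595281-83595339 for Clec4f, chr3:87174823-87174882 for Cd5l, chrX:93442598-93442657 for Vsig4 and chr4:136452409-136452468 for C1qa. Because whole liver was measured, fewer macrophages and less RNA per macrophage cannot be told apart.

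RefSeq promoters (GRCm38.p6, the 250 bases before the gene start) were given for 8 of the 10 genes. The sequence GAGGAA, the core bound by PU.1, a transcription factor that macrophages need, was searched on both strands. It lies in 5 of the 8, against 23.3% of 32851 promoters of the same length. These 5 promoters are printed to show where the shared letters lie, and capitals mark GAGGAA or its reverse complement TTCCTC. A link between the motif and the levels of the markers was not tested.
Marco promoter, chr1:120505025-120505274, minus strand: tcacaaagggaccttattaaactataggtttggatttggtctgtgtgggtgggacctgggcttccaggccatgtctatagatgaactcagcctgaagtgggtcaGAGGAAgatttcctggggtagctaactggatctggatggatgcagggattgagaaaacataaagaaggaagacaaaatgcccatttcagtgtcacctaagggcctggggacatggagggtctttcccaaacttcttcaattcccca
Cd5l promoter, chr3:87357631-87357880, plus strand: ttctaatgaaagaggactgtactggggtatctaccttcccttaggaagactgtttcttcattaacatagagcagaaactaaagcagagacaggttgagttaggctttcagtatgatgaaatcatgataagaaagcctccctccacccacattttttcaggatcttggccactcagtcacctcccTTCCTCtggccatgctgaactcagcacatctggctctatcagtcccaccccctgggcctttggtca
Vsig4 promoter, chrX:96293439-96293688, minus strand: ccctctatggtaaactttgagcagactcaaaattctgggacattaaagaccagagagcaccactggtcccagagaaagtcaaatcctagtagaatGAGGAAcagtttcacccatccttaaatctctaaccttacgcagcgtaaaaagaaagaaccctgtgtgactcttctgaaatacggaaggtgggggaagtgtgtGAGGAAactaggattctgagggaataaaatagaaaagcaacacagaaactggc
Cd68 promoter, chr11:69666171-69666420, minus strand: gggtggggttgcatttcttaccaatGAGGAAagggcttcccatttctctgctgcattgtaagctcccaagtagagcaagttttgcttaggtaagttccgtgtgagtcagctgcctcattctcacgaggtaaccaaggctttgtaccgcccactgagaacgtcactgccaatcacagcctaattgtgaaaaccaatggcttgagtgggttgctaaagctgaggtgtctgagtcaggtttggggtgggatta
Mrc1 promoter, chr2:14229164-14229413, plus strand: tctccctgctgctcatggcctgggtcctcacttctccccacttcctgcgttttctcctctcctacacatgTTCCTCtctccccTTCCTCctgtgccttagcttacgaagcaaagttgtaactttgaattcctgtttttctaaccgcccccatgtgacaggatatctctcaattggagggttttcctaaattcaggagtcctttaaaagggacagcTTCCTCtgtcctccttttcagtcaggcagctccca
Marco, Cd5l and Cd68 hold the motif once each, Vsig4 holds it 2 times and Mrc1 3 times. Of the other motifs searched in the same way, TGCTGA (the core of MAF factors) lies in the promoters of Clec4f, Cd5l and Timd4, against 16.1% of all promoters. AGGTCA (a nuclear receptor site) lies in those of Clec4f and Timd4, against 14.0%, and TATAAA in 0 of the 8, against 12.4%.

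At day 2 the markers were higher in the siRNA arrays than in the other arrays. The 9 markers well above background on all 12 arrays were higher in both siRNA arrays than in each of the 4 others, as were 20.1% of the 15749 genes so measured. Their median difference of means was 1.23, against 0.05 over those genes. For 7 of the 9 the means were at least 2-fold apart, against 2.15% of those genes; Clec4f stood near that limit at 1.02. Cd163 passed the filter through the siRNA arrays, where it was high, and is not in these counts.

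Marco, a scavenger receptor that binds bacteria and particles, had a level of 3.82 with G0s2 siRNA and 6.05 with control siRNA at day 2, against 2.57 with ATRA+DEN, 1.15 with DEN, 2.08 with ATRA and 1.06 with vehicle. The means differ 9.35-fold, and the control siRNA array stands apart from the G0s2 siRNA array as well. Cd5l, a secreted protein with scavenger receptor domains, had 6.27 with G0s2 siRNA and 6.48 with control siRNA, against 3.97, 4.22, 3.90 and 4.38 with ATRA+DEN, DEN, ATRA and vehicle. Its means differ 4.79-fold, and the groups are far apart compared with the spread inside each.

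Timd4, a receptor for phosphatidylserine on dying cells, had levels of 0.63 with G0s2 siRNA and 0.92 with control siRNA, the order kept for the pairs of siRNA values that follow, against -0.89 to -0.47 in the others. Clec4f, a lectin that in mice marks Kupffer cells, had 5.11 and 5.33, against 4.12 to 4.27. Vsig4, a complement receptor, had 4.47 and 4.78, against 3.36 to 3.63. For each of these genes the gap between the groups exceeds the range within either.

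Cd68, a lysosomal glycoprotein of macrophages, had 2.53 and 2.78 in the siRNA arrays, against 1.30 to 1.43 in the others. C1qa, a subunit of the complement protein C1q, had 2.55 and 3.37, against 1.58 to 1.89. Csf1r, the receptor for CSF1 and IL-34, had 5.40 and 5.85, against 4.47 to 4.79. Mrc1, the mannose receptor, which sinusoidal endothelium also makes, showed the smallest gap, with 2.75 and 2.73 against 2.11 to 2.37. Cd163, the receptor for haemoglobin bound to haptoglobin, was well above background in both siRNA arrays (-1.91 and -2.37) and in 1 of the 4 others, so its low values there are not measured levels and its gap is not counted.

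The 3 Csf1r probes did not agree. The probe used, and a second one next to it, were higher in the siRNA arrays of day 2 (5.40 and 5.85, and 0.10 and 0.58) than in the others (4.47 to 4.79, and -1.35 to -1.02). The probe nearest the gene's start was lower, with 1.19 and 1.18 in the siRNA arrays against 1.49 to 1.68 in the others. The second Cd68 probe was well above background on 4 arrays, which are the 4 siRNA arrays of both days.

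**Figure D1:**
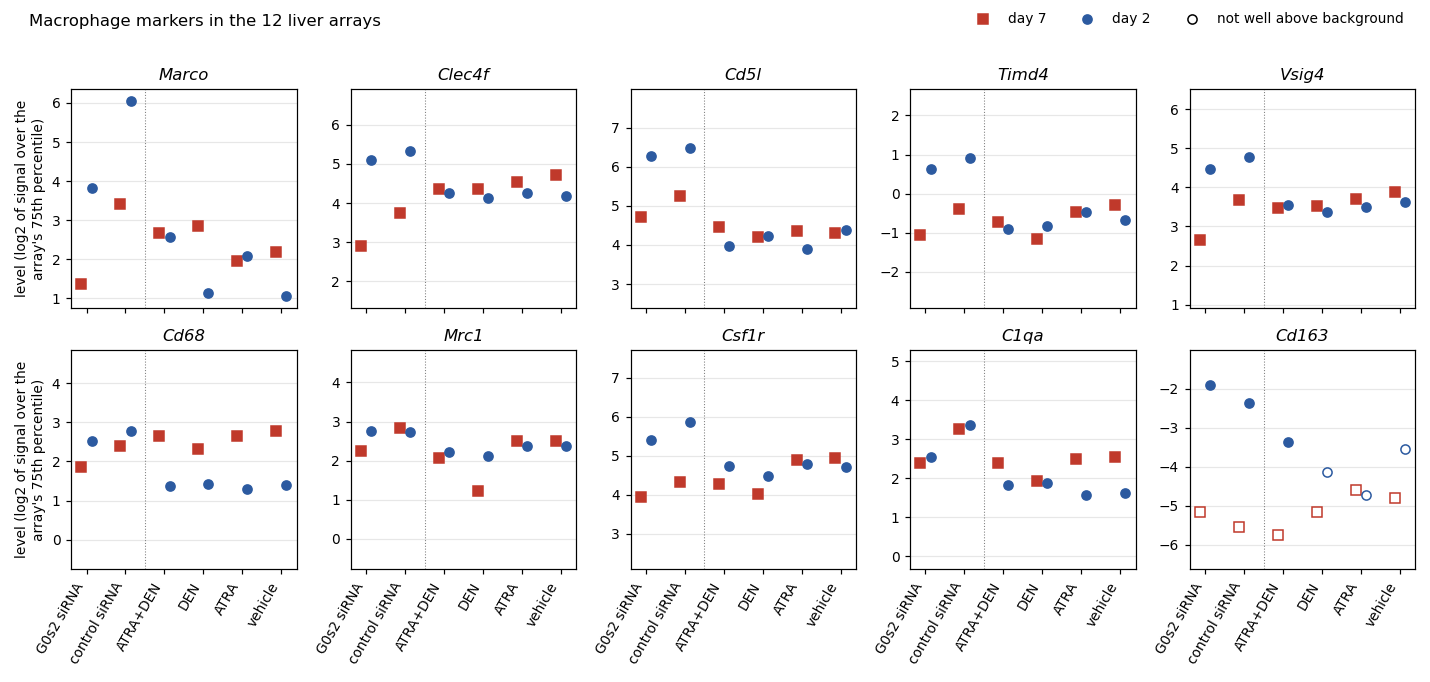
Level (log2 of signal over the array's 75th percentile) of each marker in the 12 arrays, by treatment, with day 7 as red squares and day 2 as blue circles; open symbols were not well above background, and each panel spans the same number of log2 units. The 2 blue points left of the dotted line (siRNA) lie above the 4 to its right in all 10 panels, with 3 of those 4 open for Cd163.

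Other genes of macrophages moved in the same comparison. Of 20 other macrophage genes tested, 17 were higher in both siRNA arrays without overlap, as were 17.8% of all genes, with a median difference of 1.23, and their summed scaled intensity was 88.5 and 124, against 36.7 to 43.9. Of 15 other Kupffer cell genes, 10 were higher without overlap, with a median of 0.90 and sums of 156 and 178, against 124 to 149. Hepatocyte genes gave 0 of 10 higher, with sums of 9110 and 7950 against 8040 to 10300.

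Of 10 genes of sinusoidal endothelium 2 were higher without overlap, near the 17.8% of all genes. Their sums were 163 and 151 against 143 to 178. Of 8 genes of recruited monocytes 3 were higher without overlap, and Itgam was lower. The 8 had a median of 0.79, but 5 of them were well above background on all arrays. The sums over the 8 were 23.1 and 30.5 against 32.0 to 57.3. Itgam has the highest signal on this list, with levels of 3.78 and 4.19 against 4.73 to 5.66. Both siRNA arrays of day 2 lie on a slide that holds no other array, so siRNA with its carrier and slide cannot be told apart at that day, and the difference was not tested.

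At day 7 the markers did not stand apart in the same way. Their median difference of means between the siRNA arrays and the others was -0.17, against 0.02 over all genes; it was 0.08 with median scaling and 0.16 with the median over probes. Cd5l was higher in both siRNA arrays, with 4.71 and 5.25 against 4.21 to 4.45, while 20% of all genes were higher without overlap. Clec4f was lower in both, with 2.91 and 3.74 against 4.35 to 4.70, while 18.1% of all genes were lower without overlap. The other 8 genes overlapped.

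The siRNA arrays of day 7 share their slide with ATRA+DEN and ATRA. Against these alone, Cd5l was higher (26.8% of all genes were), and Clec4f and Cd68 were lower (27.3% were). Cd68 had 1.87 and 2.41 in the siRNA arrays, against 2.64 and 2.66. The Clec4f difference of means was -1.13 on that slide and -1.17 against all 4 other arrays.

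**Figure D2:**
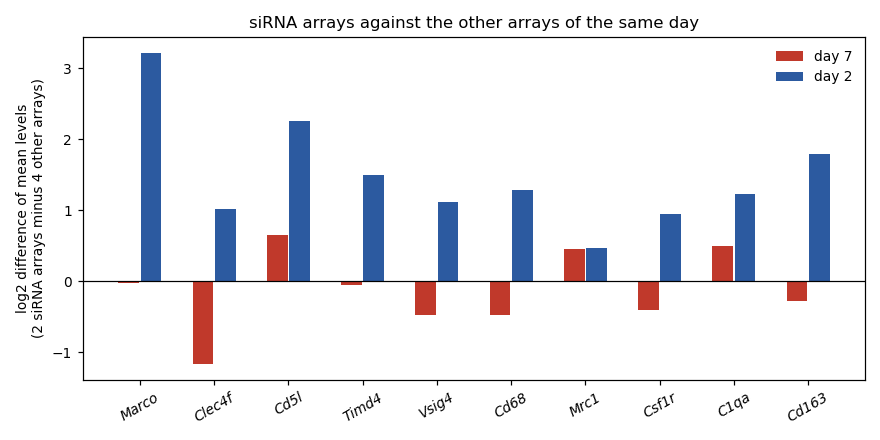
Difference of mean log2 levels, 2 siRNA arrays minus the 4 other arrays of the same day, for each marker, with day 7 in red left of day 2 in blue. All 10 blue bars are above 0, from 0.47 for Mrc1 to 3.22 for Marco (Cd163 rests mostly on values not above background), and the red bars run from -1.17 for Clec4f to 0.65 for Cd5l.

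**Figure D3:**
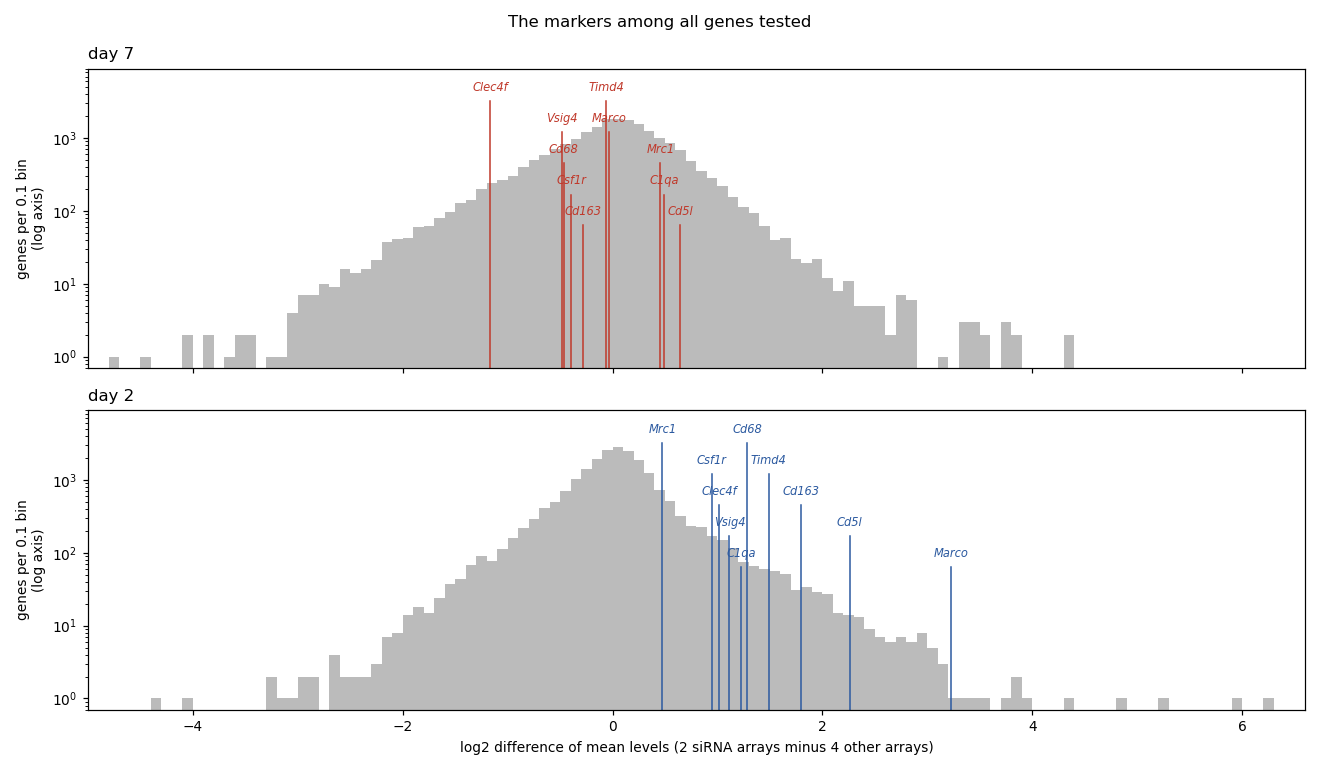
Number of genes (log axis) by the same difference, in bins of 0.1, over the genes tested, with day 7 above day 2; lines mark the 10 markers. The markers lie on both sides of 0 at day 7 and to its right at day 2.

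With G0s2 siRNA, Marco was the marker furthest below its control. Its level was 1.35 with G0s2 siRNA and 3.42 with control siRNA at day 7, and 3.82 with G0s2 siRNA and 6.05 with control siRNA at day 2. It was lower in both pairs, by -2.06 and -2.23, a mean log2 difference of -2.14 ± 0.19 (SE), or 4.42-fold lower. The mean is over 2 pairs, but SE and p for G0s2 siRNA come from a fit whose spread is shared with the DEN pairs. Of all genes tested Marco had the smallest p in this comparison, but it missed the threshold after adjustment (limma, adjusted p = 0.346).

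No gene of the 21183 passed for G0s2 siRNA with limma (0%), and 862 higher and 574 lower genes had an unadjusted p under 0.05. Of the 10 markers 9 were lower on average, with a median of -0.45 against 0.06 over all genes, and 8 were lower in both pairs, as were 20.7% of all genes. 5 had an unadjusted p under 0.05, all lower, against 2.71% of all genes: Marco, C1qa (-0.84 ± 0.24), Vsig4 (-0.67 ± 0.20), Clec4f (-0.53 ± 0.19) and Cd5l (-0.38 ± 0.15). C1qa had 2.39 with G0s2 siRNA and 3.26 with control siRNA at day 7, and 2.55 with G0s2 siRNA and 3.37 with control siRNA at day 2, so it was lower by about the same amount in both pairs.

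Vsig4 had 2.65 with G0s2 siRNA and 3.68 with control siRNA at day 7, 2.03-fold lower, and 4.47 with G0s2 siRNA and 4.78 with control siRNA at day 2. Clec4f was lower by -0.84 at day 7 and -0.22 at day 2. The test of that change between days did not pass for any marker (limma, adjusted p = 1 for each of the 10). The siRNA pairs of each day are single, so the spread in that test comes from the DEN pairs.

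The Csf1r probe nearest the gene's start differed by -0.01 at day 7 and 0.01 at day 2, against -0.41 and -0.45 for the probe used. Timd4 (-0.47 ± 0.21), Csf1r (-0.43 ± 0.22) and Cd68 (-0.39 ± 0.18) were lower in both pairs, with adjusted p between 0.346 and 0.872 over the 10 markers. Mrc1 was lower by -0.59 at day 7 and stood at 0.02 at day 2. Cd163 was dim in 2 of these 4 arrays, and its estimate was 0.42 ± 0.55.

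Of 20 other macrophage genes 19 were lower with G0s2 siRNA, with a median of -0.51, and 6 had an unadjusted p under 0.05. The 2 of highest level were C1qc, another subunit of C1q (-0.59 ± 0.20, adjusted p = 0.697), and Ctss, a lysosomal protease (-0.53 ± 0.23, adjusted p = 0.697). Of 15 other Kupffer cell genes 12 were lower, with a median of -0.42. Over all 21183 genes the median was 0.06, and 862 higher and 574 lower had an unadjusted p under 0.05. Within the pairs 42.7% of all genes were lower at day 7 and 41.6% at day 2. Of 7 genes of T, B and NK cells 6 were higher (median 0.38), and of 10 hepatocyte genes 8 were higher (median 0.19); their part in the markers' differences was not tested.

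**Figure D4:**
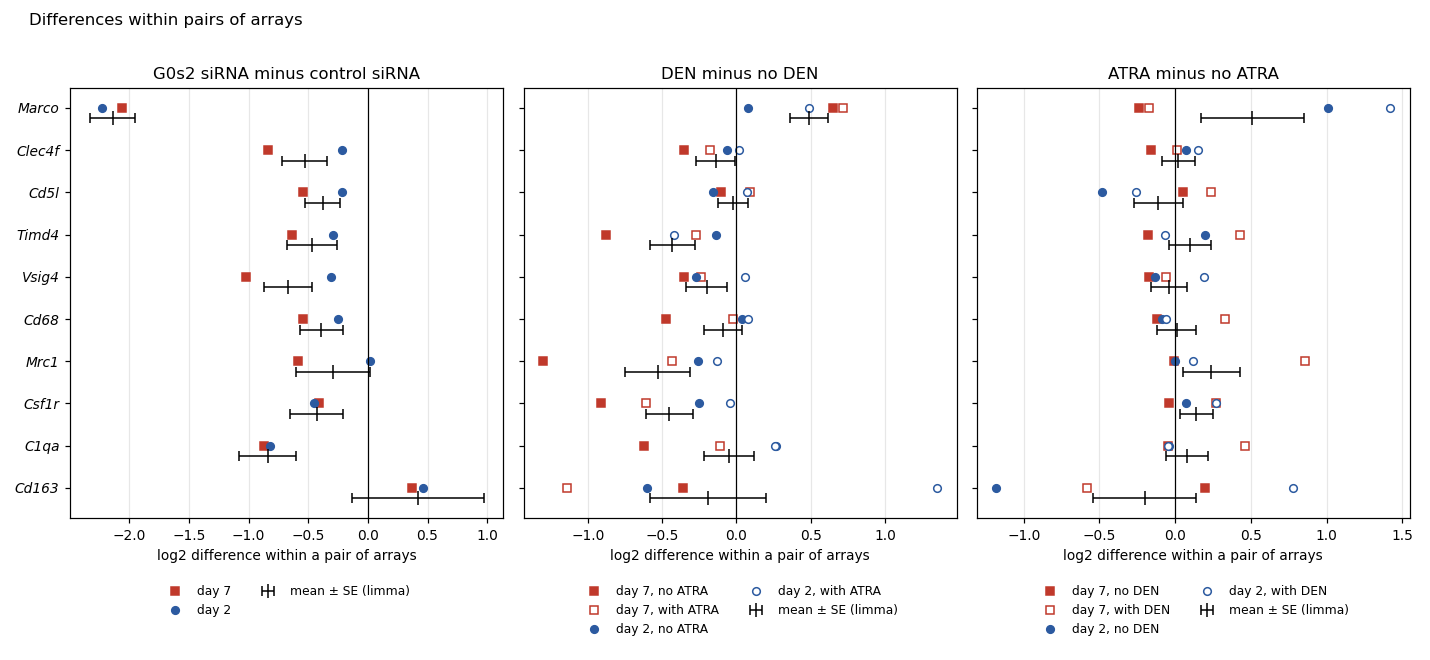
Log2 differences within pairs of arrays for each marker with G0s2 siRNA, DEN and ATRA (left to right); day 7 is in red squares and day 2 in blue circles, and bars give the limma mean ± SE over 2, 4 and 4 pairs. Marco lies near -2 in both siRNA pairs, above 0 in all 4 DEN pairs, and on different sides of 0 at the 2 days with ATRA. The SE bars with G0s2 siRNA and with DEN come from a shared fit.

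With DEN, Marco was higher in all 4 pairs, as were 9.17% of all genes. It had 2.84 with DEN and 2.19 with vehicle, and 2.68 with ATRA+DEN and 1.96 with ATRA, at day 7. At day 2 it had 1.15 with DEN and 1.06 with vehicle, and 2.57 with ATRA+DEN and 2.08 with ATRA. The mean difference was 0.49 ± 0.13 (SE, 4 pairs), and it did not pass after adjustment (limma, adjusted p = 0.288).

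The other 9 markers had mean DEN differences below 0, though Cd5l (-0.02), C1qa (-0.05) and Cd68 (-0.09) were each higher in 2 of the 4 pairs and turned sign under other settings. The median of the 10 was -0.17, against -0.02 over all genes. 0 of the 21183 genes passed for DEN with limma (0%), and 1161 higher and 1437 lower genes had an unadjusted p under 0.05. Among the markers these were Marco (5.48% of genes were higher at that p) and, lower, Csf1r and Timd4 (6.78%).

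Timd4 had -1.16, -0.74, -0.82 and -0.89 in the DEN arrays (DEN and ATRA+DEN of day 7, then of day 2), against -0.29, -0.47, -0.68 and -0.47 in their partners without DEN. Mrc1 had 1.21, 2.07, 2.11 and 2.23 in the DEN arrays, against 2.51, 2.51, 2.37 and 2.36. Both were lower in every DEN array than in any array of the 4 without DEN or siRNA, as were 1.86% of all genes.

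That count of 2 depends on the scaling: it was 3, with Csf1r, with the percentile taken over spots, 1 with quantile normalization and 0 with median scaling. Csf1r had 4.02, 4.28, 4.47 and 4.74 in the DEN arrays, against 4.93, 4.89, 4.72 and 4.79, lower in all 4 pairs, with overlap between groups. Timd4, Mrc1 and Csf1r were the markers lower in every pair, as were 12.5% of all genes. A second Csf1r probe was lower in both day-7 pairs (-1.28 and -0.77) and higher in both day-2 pairs (0.12 and 0.32). The Csf1r probe nearest the gene's start was lower by -0.66 and -0.33 at day 7, and by -0.01 and -0.19 at day 2. The mean differences were -0.43 ± 0.15 for Timd4, -0.53 ± 0.22 for Mrc1 and -0.45 ± 0.16 for Csf1r (limma, adjusted p = 0.354, 0.41 and 0.356).

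Among the 9 markers measured on all arrays, the largest DEN difference in a pair was that of Mrc1 at day 7 without ATRA, 2.47-fold lower; without that pair its mean difference was -0.28. In that pair 9 of the 10 markers were lower, with a median of -0.41, as were 53.1% of all genes. Cd163, not well above background in either array of that pair, is among the 9. Mrc1 is also made by sinusoidal endothelium, and 7 of 10 genes of that list were lower with DEN (median -0.38). Their summed scaled intensity was 78 with DEN and 102 with ATRA+DEN at day 7, against 122 with ATRA and 134 with vehicle. At day 2 the sums were 153 with DEN and 145 with ATRA+DEN, against 178 with vehicle and 143 with ATRA. Their part in the Mrc1 difference was not tested.

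With the 3 day-7 arrays grouped by the treatment characteristic, the DEN difference was 0.04 for Marco, -0.08 for Timd4, -0.02 for Csf1r and 0.12 for Mrc1, and the median of the markers was 0.05. Marco was then higher in 3 of the 4 pairs, and Timd4, Csf1r and Mrc1 were each lower in 3. The DEN differences did not pass a test of change between days for any marker (limma, adjusted p between 0.728 and 0.979). The DEN difference with ATRA minus the DEN difference without it was above 0 for all 10 markers. Its median was 0.24, against 0.03 over all genes. It ran from 0.13 to 0.58, but the 0.58 (± 0.91) is Cd163, not well above background on most of these arrays. The next highest was Mrc1 (0.50 ± 0.44). 0 of the 10 passed (limma, adjusted p = 1), and 416 higher and 350 lower genes had an unadjusted p under 0.05. The sign was not particular to the markers. This difference was also above 0 for 10 of 10 genes of sinusoidal endothelium (median 0.2) and 17 of 20 other macrophage genes (0.28). It was above 0 for 4 of 10 hepatocyte genes (-0.03).

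With ATRA, Marco differed between the days. It had 1.96 with ATRA and 2.19 with vehicle at day 7, and 2.68 with ATRA+DEN and 2.84 with DEN. At day 2 it had 2.08 with ATRA and 1.06 with vehicle, and 2.57 with ATRA+DEN and 1.15 with DEN, 2.02-fold and 2.68-fold higher. The change of the difference between days was -1.42 ± 0.24 and did not pass after adjustment (limma, adjusted p = 0.461). Marco was the 1 marker with an unadjusted p under 0.05 here, on the lower side, where 4.25% of all genes were. The day-7 pairs span 2 slides.

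Over all 4 pairs Marco's ATRA difference was 0.51 ± 0.34. The other 9 markers lay between -0.20 and 0.24, with a median over the 10 of 0.05, and 0 of the 10 had an unadjusted p under 0.05, against 3.47% of all genes on the higher side and 2.34% on the lower. With limma 0% of all genes passed the adjusted threshold, 736 being higher and 495 lower by the unadjusted one. Cyp26a1 was higher with ATRA in all 4 pairs, by 2.99 to 6.21.

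Day 7 and day 2 were compared over the 6 treatments, with day and slide not to be told apart, since each slide holds 1 day. Of all genes 46.8% passed (5571 higher and 4350 lower), and 1 of the 10 markers did. With slide as a random block 4726 genes and 0 markers passed. The marker was Cd163 (limma, adjusted p = 0.0157, and 0.0668 with slide as a random block), which was not well above background on any of the 6 day-7 arrays and on 3 of 6 at day 2, so no fold is given. The median of the markers was -0.39, and that of all genes was 0.11. The split of all genes depends on the scaling: 8593 were higher and 2967 lower with median scaling (median of all genes 0.36), and 2455 higher and 6145 lower with the percentile over detected probes (median -0.14).

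That median of the markers mixes opposite differences. Between day 7 and day 2 it was -1.62 with G0s2 siRNA and -1.28 with control siRNA, with 7 of 10 markers at least 2-fold lower in each, against 16.4% and 15.5% of all genes. In the 4 treatments without siRNA it lay between 0.01 and 0.32. Cd163, not well above background on any day-7 array, is included in these medians and is among the 7 with each siRNA. Marco was lower at day 7 by -2.47 with G0s2 siRNA and -2.63 with control siRNA, and stood at 1.70 with DEN, 1.13 with vehicle, 0.11 with ATRA+DEN and -0.12 with ATRA.

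Without the siRNA arrays, Cd68 was higher at day 7, with 2.64, 2.32, 2.66 and 2.79 for ATRA+DEN, DEN, ATRA and vehicle, against 1.37, 1.43, 1.30 and 1.39 at day 2. The means differ 2.35-fold and the groups do not overlap. C1qa and Clec4f were also higher at day 7 without overlap, by narrow margins, as were 24% of all genes. The lowest C1qa level at day 7 was 1.92, against a highest of 1.89 at day 2. For Clec4f these were 4.35 and 4.27.

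Over the 12 arrays, the 9 markers measured on all of them varied together. After the mean of each day was subtracted, all 36 pairs of them had a positive Pearson correlation over the 12 arrays, with a median of 0.775 (0.16 to 0.947). Over all pairs of the 15749 genes so measured 52.3% were positive, with a median of 0.026. Over the 8 arrays without siRNA 26 of the 36 were positive, with a median of 0.554, against 0.015 over all gene pairs. All 8 of Marco's correlations were negative there (-0.754 to -0.069), and 26 of the 28 pairs without Marco were positive, with a median of 0.647. These arrays share treatments, slides and scaling, and no p is given.

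The gene most like C1qa was C1qb, its partner subunit in C1q (r = 0.977), and the gene most like Marco was Ebi3, a cytokine subunit (r = 0.964). Cd5l was most like Cd300c2 (0.970), Vsig4 and Cd68 most like Fyb, an adaptor of blood cells (0.969 and 0.979), and Clec4f most like Samhd1 (0.951). Csf1r and Timd4 were most like Ptpn1, a tyrosine phosphatase (0.964 and 0.950), and Mrc1 most like Samd1 (0.963). Each was the highest of 11212 candidate genes. With levels not centred by day, r with the same gene was 0.264 for Csf1r, 0.441 for Timd4, 0.502 for Mrc1 and 0.255 for Cd68. For the other markers it lay between 0.887 and 0.966. The top 3 of the 9 markers hold 27 places and 25 different genes, and 8 places kept their gene when levels were not centred by day.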

How the data were processed

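The deposited array files hold spot intensities that Agilent Feature Extraction had processed, per the file headers, which name version 10.7.1.1 and build mm9 (version 9.5.1.1 per the submitters' processing notes). The detection and outlier flags beside these intensities are also the authors' deposited values. Spots flagged as outliers were left out (at most 0.244% an array), spots of a probe were averaged on the log2 scale, and the array's 75th percentile over probes was subtracted. In a first pass the percentile was taken over spots. It was changed to probes, as in an earlier description of these data, after the results of the first pass had been seen, and the values by spots are given as an alternative.

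Probes were named through RefSeq by accession (27235), symbol (3581) or synonym (565), and 24300 kept the array's name. A gene was its probe of highest mean level. Differences were fitted over all genes with limma 3.58.1 under R 4.3.3, with pairs of arrays as a block and Benjamini-Hochberg adjustment at 0.05; DEN and G0s2 siRNA shared one fit of 12 arrays, and ATRA used 8. The fits were tested on simulated data. The deposited series table of normalized intensities, which correlated with its own array at r above 0.999, served as an alternative.

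The 10 markers, all named, and the lists were chosen with earlier results of these data known. Of each list the 2 genes of highest level and up to 4 that passed could be named, and for likeness the 3 most correlated genes of each marker. Alternatives were quantile, median and other percentile scalings, normexp background with offset 50, other filters, the median over probes, slide blocks, groups by the characteristic and pairs left out.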

Additional observations from a re-analysis of the deposited data

Results flagged for a closer look

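Clec4f moved in opposite ways in the siRNA arrays at the 2 days. At day 7 it had 2.91 with G0s2 siRNA and 3.74 with control siRNA, below all 4 other arrays (4.35 to 4.70), and at day 2 it had 5.11 and 5.33, above all 4 (4.12 to 4.27). The difference of means was -1.17 at day 7 and 1.02 at day 2, a gap of -2.18 between the days. The gap was not tested, and the slides differ between the days.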

How the results depend on the processing

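Arrays were paired by day and treatment in every fit other than that of day, which had treatment as its block; the labels give no replicate numbers, so none was used as a block. With the percentile over spots, used first, 3 markers were lower with DEN without overlap, against 2 over probes. At day 2, 7 of 10 were at least 2-fold higher in the siRNA arrays by spots, and 8 of 10 over probes. These counts include Cd163, which passed the filter through the siRNA arrays, so its place in them carries no weight. Without Cd163 7 of 9 were so over probes, against 2.15% of the genes well above background on all 12 arrays. The DEN count was 1 with quantile normalization, 0 with median scaling and 1 with the percentile over detected probes. At day 2 the 9 markers other than Cd163 were all higher in the siRNA arrays under each scaling and background setting run. At the main setting 17.8% of all genes were higher without overlap. The count was 9 of 10 (Cd163 included) with the median over probes, and 9 of 9 with the filter on all 12 arrays, against 20.1% of the genes so filtered. At day 7 the count higher was 2 with median scaling and 2 with the median over probes, against 20% of all genes at the main setting.

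With normexp background, 9 genes passed for DEN, 4 for G0s2 siRNA, 1 for DEN by day, 4 for ATRA by day and 4 for G0s2 siRNA by day; 1 marker passed, Marco with G0s2 siRNA (-2.1, adjusted p = 0.0143). For DEN, Cd5l turned to 0.03 with quantile normalization, 0.04 with normexp, 0.01 with detected probes and 0.03 with the series table, and Cd68 to 0.20 with the median over probes. By the characteristic, the DEN median was 0.05, with Marco 0.04, Timd4 -0.08, Csf1r -0.02, Cd5l 0.05, Cd68 0.08, Mrc1 0.12, C1qa 0.24 and Cd163 0.09.

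For day, the markers that passed numbered 2 with quantile normalization, 3 with median scaling (Mrc1 turned to 0.06) and 2 with detected probes. They numbered 0 with the filter on all 12 arrays and 0 with slide as a random block, where 4726 genes passed. Of the 21183 genes 3866 higher and 4045 lower passed with quantile normalization, and 8593 and 2967 with median scaling. With detected probes 2455 and 6145 passed. The filter on all 12 arrays gave 5615 higher and 2582 lower of 15749 genes. Leave-one-out values, from lowest to highest, were -0.70 to 0.13 for Cd163, -0.06 to 0.02 for Cd5l, -0.15 to 0.03 for Cd68 and -0.16 to 0.14 for C1qa with DEN, -0.59 to 0.01 for Mrc1 with G0s2 siRNA, and -0.80 to 0.07 for Marco by day. Without a pair, 0 to 1 genes passed for G0s2 siRNA (1 without the day-2 pair). For day, 1 to 2 markers passed (2 without G0s2 siRNA), and 8111 to 9218 of all genes. Marco by day turned without either siRNA pair. ATRA by day with slide as a fixed block could not be fitted. The causes were not tested. The single array per group and the dim Cd163 probe limit every result.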

Other observations

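Day 7 and day 2 were also compared for the other lists in the arrays without siRNA, where 24% of all genes were higher at day 7 without overlap. Of 15 other Kupffer cell genes 7 were higher without overlap (Folr2, Siglec1, Nr1h3, Id3, C6, Il18bp and Slc11a1), with a median difference of means of 0.68, against 0.12 over all genes. Of 13 genes for ligands and partners of the markers 5 were higher, among them Csf1 and Il34, which encode the ligands of the Csf1r receptor, with a median of 0.58. The 7 genes of T, B and NK cells had a median of -0.34, and 4 of them were well above background on all arrays. Day and slide cannot be told apart here.

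At day 7, 4 of 10 genes of sinusoidal endothelium (Lyve1, Clec4g, Fcgr2b and Pecam1) were higher in both siRNA arrays than in each of the 4 other arrays, with a median of 0.39, against 0.02 over all genes; 20% of all genes were higher without overlap. With DEN, 5 of 8 genes of recruited monocytes were higher on average (median 0.34), but 7 of the 8 were lower with DEN alone than with vehicle at day 2 (median -0.48). With DEN, 4 of 5 genes of cholangiocytes were higher on average (median 0.61), against -0.02 over all genes. Of these 5 genes 3 were well above background on all arrays, and 0 passed for DEN. The 2 of highest level were Spp1 (0.61 ± 0.37) and Krt19 (0.31 ± 0.26).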
